A study of Mus musculus with 8 samples.

Results

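NF-kB is the family of dimeric transcription factors that inflammatory signals release to switch on cytokine, chemokine and protease genes. The genes followed here are its subunits and the proteins that hold it back or steer it: Nfkb1, Nfkb2, Rela and Relb (subunits), Nfkbia, Nfkbib and Nfkbie (the classical IkB inhibitors), Nfkbiz and Bcl3 (IkB-like proteins that act in the nucleus), and Tnfaip3 (a ubiquitin-editing enzyme). They were chosen by name from a list of 10 genes, with earlier results of these data known. They were matched by gene symbol to probe sets of the microarray that carry 1 symbol. Of the 10, 9 were measured, each by 1 probe set, among 22180 genes in all. Nfkb1 was not analysed here. No filter on low values was applied, so all 9 entered the test.

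The cells were primary articular chondrocytes, the cells of joint cartilage, from the femoral condyles and tibial plateaus of 5-day-old wild-type ICR mice, grown as a monolayer with fetal bovine serum. Both groups were infected with adenovirus for 24 h. Ad-null (4 arrays) was the null control virus and Ad-Zip8 (4 arrays) carried the zinc transporter ZIP8, the product of Slc39a8. The labels call the arrays biological replicates without saying which mice or pools gave each culture, and the p-values therefore describe the spread among these 8 arrays, which may be partly technical.

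In resting cells NF-kB dimers are held in the cytoplasm by IkB proteins. Kinases activated by receptors for interleukin 1, tumour necrosis factor or bacterial products mark the IkB proteins for destruction, and the freed dimers enter the nucleus. Among the genes NF-kB is known to switch on are several of its own subunits and inhibitors, so their transcripts are textbook readouts of the pathway and its negative feedback. In chondrocytes the pathway is known for driving matrix-degrading enzymes in osteoarthritis.

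Slc39a8 lay between 6.12 and 6.27 with Ad-null and between 10.9 and 11.2 with Ad-Zip8 on the log2 scale, a change of 4.93 (SE 0.09, limma adjusted p = 3.49e-09). As background for the marker counts that follow, 5.48% of 22180 genes were called higher and 5.12% lower (limma adjusted p under 0.05). All 15 chondrocyte markers of a set list lay above the array medians (5.04 to 5.11) in both groups, 12 of them fell and 1 rose, Prg4. Their mean log2 level was 11.6 to 11.7 with Ad-null and 11.1 to 11.3 with Ad-Zip8. Of 15 macrophage markers Cd14 and Cd68 rose and none fell. The mean log2 level of the macrophage list was 4.75 to 4.93 with Ad-null and 4.95 to 5.01 with Ad-Zip8. The general leukocyte marker Ptprc was near the bottom of the scale, with means of 3.39 and 3.22. None of 6 lymphocyte, 7 neutrophil, 7 endothelial or 5 osteoclast markers was called. Of 8 fibroblast or synovial markers Dcn, Lum and Pdgfra rose and Col1a2 fell, and their mean log2 level was 8.90 to 9.24 with Ad-null and 9.25 to 9.50 with Ad-Zip8. The part of these other cells in the results below was not tested, and in bulk RNA a change in cell number cannot be told apart from a change in RNA per cell.

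The stretches of DNA just before the starts of the member genes are shown because the members that rose differed in whether these held the NF-kB binding motif. RefSeq promoter sequences (mouse build GRCm38.p6) were matched by symbol for 7 of the 10 members, with 10 annotated starts between them; Nfkb1, Relb and Nfkbiz had no entry. The 250 bases before each start were searched on both strands for the 10-base kappaB motif. Capitals mark the matches, which overlap where the motif reads on both strands.
Nfkbia, chr12:55492648-55492897, minus strand: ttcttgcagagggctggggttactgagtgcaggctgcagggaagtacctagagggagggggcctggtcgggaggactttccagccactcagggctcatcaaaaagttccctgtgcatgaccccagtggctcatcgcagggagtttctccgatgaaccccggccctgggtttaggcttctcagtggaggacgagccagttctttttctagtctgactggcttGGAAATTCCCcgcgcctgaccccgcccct
Nfkb2, most upstream start, chr19:46304487-46304736, plus strand: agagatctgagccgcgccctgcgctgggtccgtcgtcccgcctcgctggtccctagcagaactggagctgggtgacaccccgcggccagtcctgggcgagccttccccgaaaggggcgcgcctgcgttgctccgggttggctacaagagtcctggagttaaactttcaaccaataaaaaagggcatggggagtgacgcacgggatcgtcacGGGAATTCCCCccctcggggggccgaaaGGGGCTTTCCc
Nfkbie, chr17:45555450-45555699, plus strand: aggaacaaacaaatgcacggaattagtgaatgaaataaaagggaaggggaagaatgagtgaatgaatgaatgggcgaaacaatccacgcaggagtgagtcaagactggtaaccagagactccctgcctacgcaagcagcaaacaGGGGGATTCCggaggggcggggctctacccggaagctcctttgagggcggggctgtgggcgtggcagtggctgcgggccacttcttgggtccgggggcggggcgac
Tnfaip3, most upstream start, chr10:19015411-19015660, minus strand: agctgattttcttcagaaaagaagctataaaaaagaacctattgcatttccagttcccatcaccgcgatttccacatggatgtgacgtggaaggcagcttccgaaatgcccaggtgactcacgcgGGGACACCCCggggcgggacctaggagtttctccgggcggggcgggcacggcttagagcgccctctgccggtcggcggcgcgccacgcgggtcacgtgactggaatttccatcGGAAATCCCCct
Bcl3, chr7:19822756-19823005, minus strand: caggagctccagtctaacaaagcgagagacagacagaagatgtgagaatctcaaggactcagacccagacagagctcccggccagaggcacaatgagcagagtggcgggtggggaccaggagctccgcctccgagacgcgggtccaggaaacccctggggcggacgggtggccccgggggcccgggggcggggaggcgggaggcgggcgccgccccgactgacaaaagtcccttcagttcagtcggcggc

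The motif was present before 1 or more starts of 4 of the 7 members, Nfkb2, Nfkbia, Nfkbie and Tnfaip3, and in 6 of the 10 windows. Over all promoters listed, 7.25% of 32851 windows and 8.23% of 27025 genes held it. Nfkbia had 1 match, GGGAATTTCC on the strand opposite to the gene, from 29 to 20 bases before the start. Nfkb2 had matches before all 3 of its starts. At its most upstream start GGGAATTCCC, which reads the same on both strands, lay 39 to 30 bases before the start, overlapping another match by all but 1 base, and GGGGCTTTCC lay 11 to 2 bases before it. Tnfaip3 had GGGGATTTCC on the opposite strand 12 to 3 bases before its upstream start and a further site 125 to 116 bases before it, which matched on both strands. Nfkbie had GGGGGATTCC from 106 to 97 bases before its start. The windows of Rela, Nfkbib and Bcl3 held no match, and so did the one at the second Tnfaip3 start. A match is a description of these letters and not a measured binding site.

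**Figure D1:**
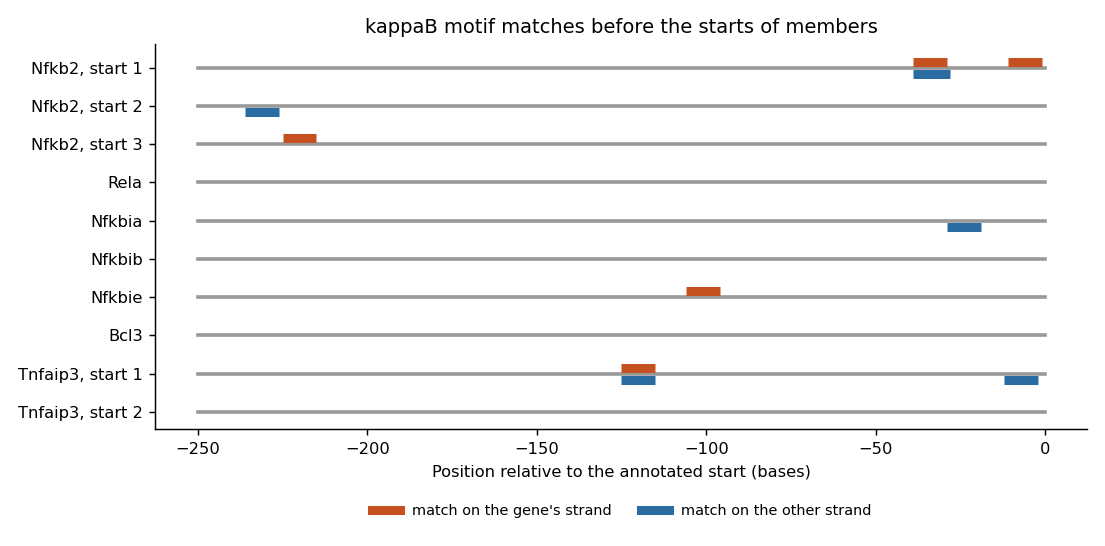
Positions of kappaB motif matches in the 250 bases before each annotated start of the 7 members with promoter sequences (x axis: bases relative to the start; 1 line per start; bars above the line are matches on the gene's strand, bars below it on the other strand). The matches of Nfkbia, Nfkb2 (upstream start) and Tnfaip3 (upstream start) include at least 1 within 39 bases of the start, and the lines of Rela, Nfkbib and Bcl3 carry none.

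Of the 9 measured members, 7 were higher with Ad-Zip8 at an adjusted p under 0.05, none was lower and 2 did not pass. Of all 22180 genes 5.48% were called higher and 5.12% lower. Because the members were chosen with earlier results of these data known, their contrast with all genes is no independent evidence. Both counts dropped whichever array was left out. The count of higher genes, 1216, then ran from 924 to 1119, and that of lower genes, 1136, from 708 to 923. The lower count was smallest without Ad-Zip8 replicate 1 (708) and without Ad-null replicate 1 (721). The members' median log2 change was 0.53, against -0.017 over all genes. The inhibitors and nuclear cofactors Nfkbiz, Bcl3 and Nfkbia had changes above 2-fold (1.12% of all genes were called higher by that much). Tnfaip3, Nfkbie, Relb and Nfkb2 rose 1.31- to 1.50-fold, and the main activating subunit Rela and the inhibitor Nfkbib stayed within their spread. In 6 of the 9 the groups did not overlap and Ad-Zip8 lay higher; 7.89% of all genes had such values.

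**Figure D2:**
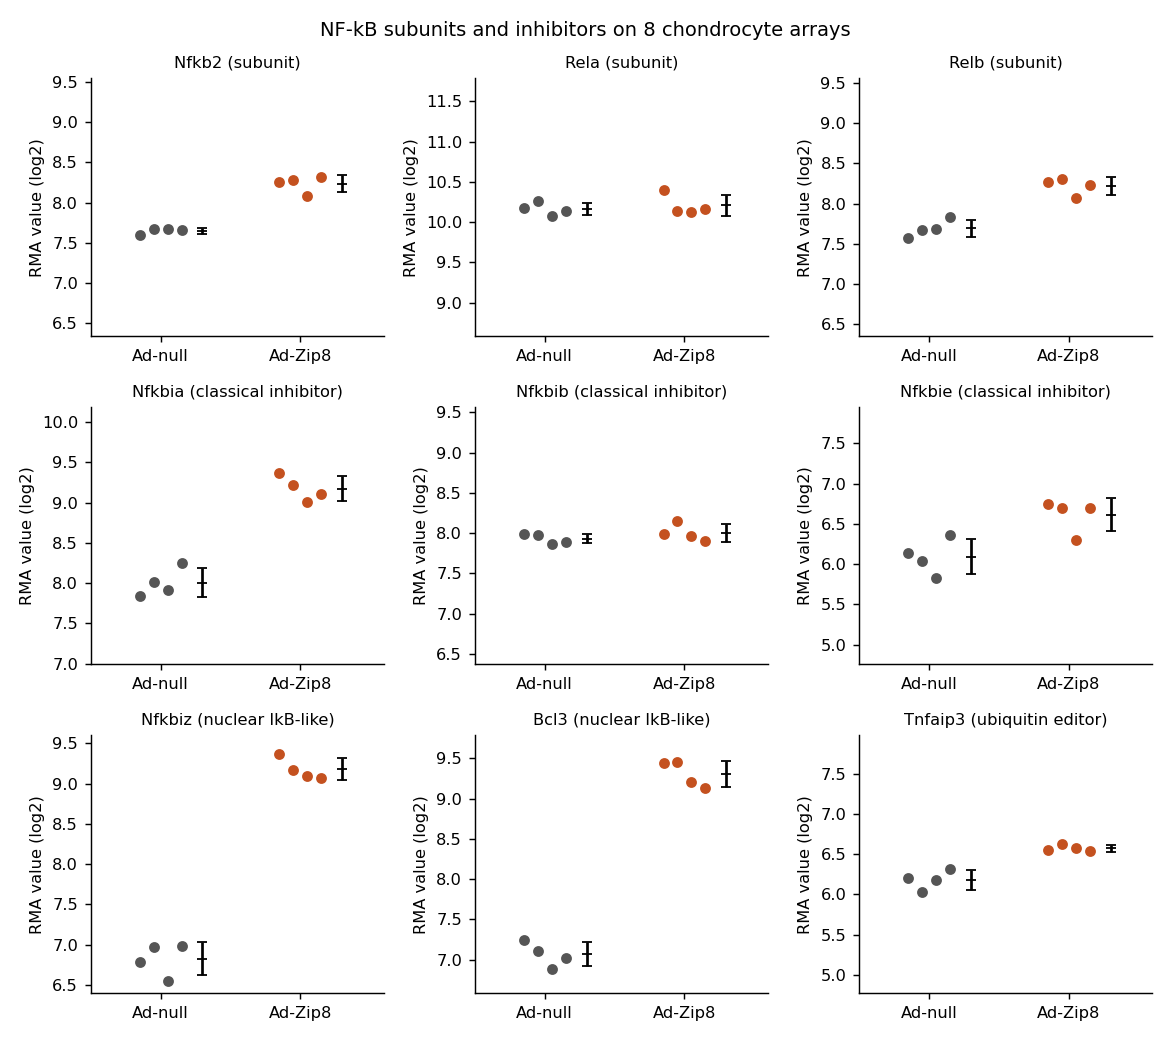
RMA values (log2, y axis; each panel spans the same number of log2 units) of the 9 members on the 4 Ad-null and 4 Ad-Zip8 arrays, with points in order of replicate number and the mean ± SD beside them. Nfkbiz and Bcl3 show the widest gaps between the groups. Rela overlaps between the groups apart from Ad-Zip8 replicate 1, above all Ad-null arrays, and Ad-null replicate 3, below all Ad-Zip8 arrays. For Nfkbib, Ad-Zip8 replicate 2 and, barely, replicate 1 lie above all Ad-null arrays. Its Ad-null replicates 3 and 4 lie below all Ad-Zip8 arrays. Nfkbie overlaps through 1 array of each group.

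Nfkb2 encodes the precursor subunit whose processed form pairs with RelB in the alternative NF-kB pathway. Its log2 values with Ad-null were 7.60, 7.68, 7.67 and 7.66 in replicates 1 to 4, and with Ad-Zip8 they were 8.26, 8.28, 8.08 and 8.32. All 4 Ad-Zip8 arrays lay above all Ad-null arrays, and the Ad-null arrays lay close together (SD 0.04). The change was 0.58 on the log2 scale (SE 0.07, 95% interval 0.42 to 0.75), or 1.50-fold, with a limma adjusted p of 8.00e-04. Relb, the partner subunit, had values of 7.58, 7.67, 7.68 and 7.83 with Ad-null and 8.27, 8.30, 8.06 and 8.23 with Ad-Zip8. These groups did not overlap either, and the rise was close in size to that of Nfkb2: 0.53 (SE 0.08, interval 0.34 to 0.72), or 1.44-fold (limma adjusted p = 0.00288).

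Rela encodes the subunit with the strong transactivation domain in the canonical dimer, which is regulated mainly by release from IkB and by modification of the protein. Its values were 10.17, 10.26, 10.08 and 10.14 with Ad-null and 10.40, 10.14, 10.13 and 10.17 with Ad-Zip8. Only replicate 1 of Ad-Zip8 lay above the Ad-null range. The change was 0.047 (SE 0.084, interval -0.14 to 0.23; limma adjusted p = 0.803), and without that array it was -0.016. The upper end of the Rela interval lies below the lower end of the Nfkb2 interval, 0.42. A p that misses the threshold does not show that Rela was equal in both groups.

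Among the classical inhibitors, Nfkbia encodes IkB alpha, the fast inhibitor that is destroyed on stimulation and resynthesised under NF-kB control. Its values were 7.84, 8.01, 7.91 and 8.25 with Ad-null and 9.36, 9.22, 9.01 and 9.10 with Ad-Zip8. The lowest Ad-Zip8 array stood well above the highest Ad-null array, replicate 4. Nfkbia rose by 1.17 on the log2 scale (SE 0.11, interval 0.93 to 1.42), or 2.25-fold (limma adjusted p = 1.29e-04), the 179th largest rise of the 22180 genes. The window before its start is the one with the match at 29 to 20 bases printed above.

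Nfkbib encodes IkB beta, an inhibitor that is not known for rapid feedback induction. Its values were 7.99, 7.98, 7.87 and 7.89 with Ad-null and 7.99, 8.16, 7.96 and 7.91 with Ad-Zip8, and the groups overlapped. The change of 0.071 (SE 0.077, interval -0.10 to 0.24) did not pass (limma adjusted p = 0.664).

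Nfkbie encodes IkB epsilon, a feedback inhibitor that is known to act later than IkB alpha. Its values were 6.13, 6.04, 5.83 and 6.36 with Ad-null and 6.75, 6.70, 6.30 and 6.70 with Ad-Zip8. The groups overlapped, because Ad-Zip8 replicate 3 fell below Ad-null replicate 4. Nfkbie rose by 0.52 (SE 0.13, interval 0.23 to 0.82), or 1.44-fold, at a limma adjusted p of 0.0332. This call was lost when Ad-null replicate 1, 2 or 3 was left out, and when replicate 1, 2 or 4 of Ad-Zip8 was (limma adjusted p 0.0689 to 0.0959). It was also lost when all 41345 probe sets were adjusted together (limma adjusted p = 0.0885).

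The nuclear IkB-like genes moved most. Nfkbiz encodes IkB zeta, a cofactor that NF-kB dimers need for a secondary set of targets such as Il6 and Lcn2. Its values were 6.79, 6.97, 6.55 and 6.99 with Ad-null and 9.37, 9.17, 9.10 and 9.06 with Ad-Zip8, so that every Ad-Zip8 array stood more than 2 log2 units above every Ad-null array. The interval of the log2 change was 2.10 to 2.61 around 2.36 (SE 0.11; limma adjusted p = 2.56e-06), the 42nd largest rise of all genes. Bcl3 encodes a cofactor that binds dimers of the DNA-binding subunits lacking an activation domain. Its values were 7.24, 7.10, 6.89 and 7.03 with Ad-null and 9.44, 9.45, 9.20 and 9.13 with Ad-Zip8. It rose by 2.24 (SE 0.11, interval 2.01 to 2.48), or 4.73-fold (limma adjusted p = 2.32e-06), the 44th largest rise, with no motif match in its printed window.

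Tnfaip3 encodes the enzyme that trims and builds ubiquitin chains on signalling proteins and so shuts the pathway down. Its values were 6.20, 6.03, 6.17 and 6.31 with Ad-null and 6.55, 6.63, 6.58 and 6.54 with Ad-Zip8. The groups did not overlap and the Ad-Zip8 arrays lay close together (SD 0.04). Its rise was the smallest of the 7, at 0.39 (SE 0.08, interval 0.22 to 0.57), or 1.31-fold (limma adjusted p = 0.00940).

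**Figure D3:**
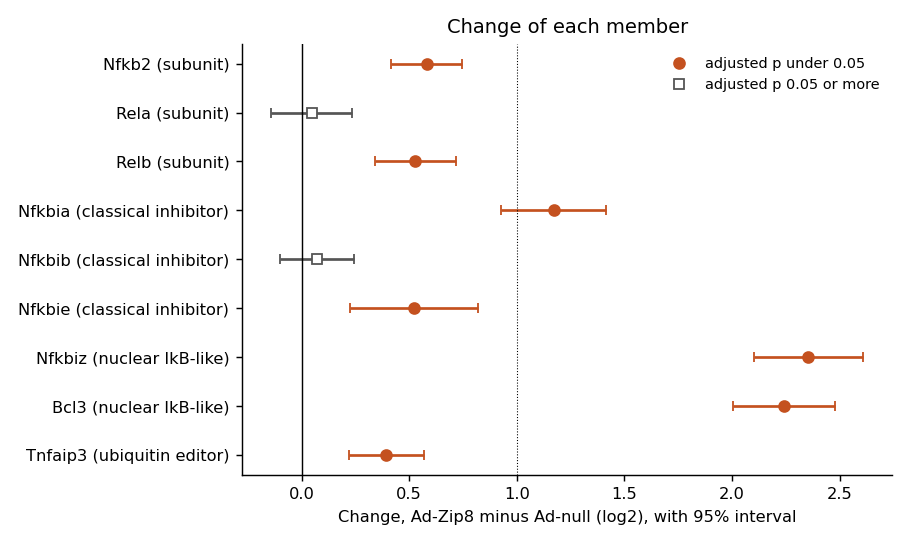
Change of each member on the log2 scale (x axis: Ad-Zip8 minus Ad-null, with the 95% interval; the dotted line marks a 2-fold rise). Nfkbiz and Bcl3 lie above 2, Nfkbia spans 0.93 to 1.42, a group of 4 lies between 0.39 and 0.58, and the open squares of Rela and Nfkbib span 0.

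In order of change the members ran from Nfkbiz and Bcl3 through Nfkbia to Nfkb2, Relb, Nfkbie and Tnfaip3, and then Nfkbib and Rela. The intervals of Nfkb2, Relb, Nfkbie and Tnfaip3 overlapped. No pair among them was tested for unequal change, so nothing is concluded about their order. Unequal change between members was tested in 5 pairs chosen by role, with earlier results of these data known. The test took the log2 difference of both genes within each array. It was an exact two-sided permutation test over the 8 arrays (smallest possible p 0.0286), with adjustment over the 5 pairs. A pair of Nfkb2 with Nfkb1 had been planned and was not analysed here, so the adjustment ran over 5 pairs in place of 6. An adjusted p depends on that number and on how many pairs reach the smallest possible p. Whether the pairs that pass over 5 would also pass over 6 was not tested.

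Relb rose more than Rela: their log2 difference was 0.48 larger with Ad-Zip8, running from -2.60 to -2.31 with Ad-null and from -2.13 to -1.83 with Ad-Zip8 (exact permutation p = 0.0286, adjusted 0.0476). Nfkbia rose more than Nfkbib by 1.10, with differences of -0.15 to 0.36 against 1.05 to 1.37 (exact permutation p = 0.0286, adjusted 0.0476). Tnfaip3 rose less than Nfkbia, its difference falling by 0.78 (exact permutation p = 0.0286, adjusted 0.0476). In these 3 pairs the groups did not overlap. Nfkbie minus Nfkbib was 0.45 larger with Ad-Zip8 and did not pass (exact permutation p = 0.0571, adjusted 0.0714). Nfkbiz minus Bcl3 differed by 0.11, with Ad-null values of -0.45 to -0.04 that enclosed the Ad-Zip8 values of -0.28 to -0.06 (exact permutation p = 0.286, adjusted 0.286).

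**Figure D4:**
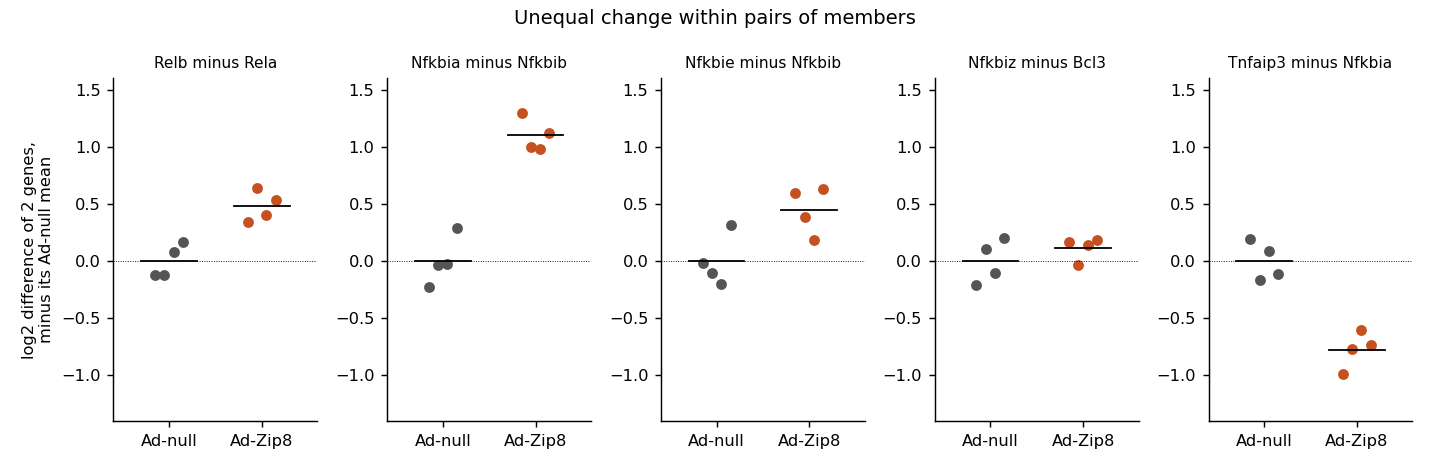
Log2 difference of 2 members within each array, set relative to its Ad-null mean (y axis), for the 5 pairs; points are arrays in order of replicate number and bars are group means. The Ad-Zip8 points stand clear of the Ad-null points for Relb minus Rela, Nfkbia minus Nfkbib and Tnfaip3 minus Nfkbia, and mix with them for Nfkbiz minus Bcl3.

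Within a group, some arrays were high or low for several members at once. Ad-null replicate 4 held the highest Ad-null value of 5 members and the lowest of none, with a median deviation from the group means of 0.13. Ad-null replicate 3 held the lowest value of 5 members and the highest of none (median deviation -0.08), and Ad-Zip8 replicate 3 did likewise within its group (-0.10). Ad-Zip8 replicates 1 and 2 each held the highest value of 4 members (0.14 and 0.05). These deviations are small beside the changes of Nfkbiz, Bcl3 and Nfkbia.

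By profile over the 8 arrays, each gene taken relative to its Ad-null mean, Bcl3 was the 2nd nearest of all genes to Nfkbiz, with a root mean square difference of 0.15 log2 units. The other close genes that the naming rule allowed were A4galt, a glycosphingolipid synthase gene (0.13), Srgn, the gene of the proteoglycan core protein serglycin (0.17), and Fgf7, a growth factor gene (0.17). Their changes were 2.33, 2.39 and 2.46. Relb was the 4th nearest gene to Nfkb2 (0.07), after the DNA ligase gene Lig1 (0.06), the Polycomb-associated gene Phf19 (0.06) and the basement membrane gene Nid1 (0.06), whose changes were 0.62, 0.57 and 0.58. The measure reads mainly the size of the change, so it groups genes that rose by a like amount.

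Bcl3 and Relb lie near each other on mouse chromosome 7, with 10 protein-coding genes between them in the RefSeq order. Of the 8 of these that were measured, 6 did not pass the test. Nectin2, an adhesion molecule gene, rose by 0.46 (limma adjusted p = 0.00713) and Bcam, another adhesion molecule gene, fell by 1.27 (limma adjusted p = 0.00277); both are named after their values were seen.

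Other genes of the pathway were taken from set lists, the named genes being the 4 with the smallest adjusted p among called members of a list without overlap. A list labelled other Rel and IkB-like held 6 genes: Rel, Nfkbid, Nfkbil1, Ankrd1, Btrc and Fbxw11. The label does not describe Ankrd1, Btrc and Fbxw11. Of the 6, 1 rose (16.7%, against 5.48% of all genes). Rel, the subunit best known from lymphocytes, had values of 7.40, 7.23, 7.29 and 7.35 with Ad-null and 7.76, 7.59, 7.63 and 7.80 with Ad-Zip8. The groups did not overlap, and the change was 0.38 (SE 0.08; limma adjusted p = 0.0120). Nfkbid, another nuclear IkB-like gene, had a change of 0.51 (SE 0.17, limma adjusted p = 0.0914) and did not pass. Its groups overlapped, with Ad-Zip8 replicate 3 (4.70) below Ad-null replicate 1 (4.84). Its Ad-null mean of 4.59 lies below the array medians, where differences can be compressed. Without Ad-Zip8 replicate 3 the count of higher genes was 2, and without Ad-null replicate 2 the count of lower genes was 1 in place of 0.

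Of 20 measured genes that restrain the pathway at other points, 5 rose (25.0%, against 5.48% of all genes) and 2 fell. The other 13 missed the threshold, and the list's median change was 0.08. Irak3, which encodes a kinase-like brake on Toll-like and interleukin 1 receptors, went from 6.43, 6.37, 6.08 and 6.13 with Ad-null to 8.54, 8.22, 8.10 and 8.14 with Ad-Zip8. That is a change of 2.00 (SE 0.12; limma adjusted p = 9.32e-06). Zc3h12a, an RNase gene whose product degrades cytokine messages, rose by 1.98 (SE 0.18; limma adjusted p = 1.22e-04). Tnip3 and Tnip1, whose products bind the Tnfaip3 enzyme, rose by 1.62 (SE 0.17) and 0.65 (SE 0.07), Tnip3 from a mean of 4.75 that lies below the array medians. Of these restraints 3 thus exceeded 2-fold, while Tnfaip3 itself rose 1.31-fold. The adaptor gene Tank also rose (0.47). The ubiquitin ligase gene Itch (-0.26) and Trib3 (-0.37) were the 2 that fell, and they and Tank are named after their values were seen. The count of 2 lower genes was 0 or 1 in each fit that left out an array, 1 with the replicate block, 0 with repeated quantile normalization, and 3 with dim genes left out and with the variance trend.

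Of 23 measured genes listed as adaptors and kinases that carry the signal to IkB, 6 rose (26.1%), 1 fell and 16 missed the threshold. Their median change was 0.04. The label does not describe Map3k8, which acts after IkB kinase. Map3k8, a kinase gene that links IkB kinase to MAP kinases, rose by 1.22 (SE 0.10; limma adjusted p = 5.25e-05), with values of 5.56 to 5.87 with Ad-null and 6.82 to 7.07 with Ad-Zip8. The ubiquitin ligase genes Birc2 and Birc3 and the adaptor gene Traf2, whose products form a complex at tumour necrosis factor receptors, rose by 0.83 (SE 0.10), 0.83 (SE 0.12) and 0.63 (SE 0.08). Ikbke (0.65) and Myd88 (0.68) rose as well. The IkB kinase subunit genes Ikbkb (-0.06) and Ikbkg (0.03) did not pass. Tab2 fell by 0.30 (limma adjusted p = 0.0231), a call lost when replicate 2 or 3 of Ad-null, or replicate 1 or 4 of Ad-Zip8, was left out. Ikbke, Myd88, Ikbkb, Ikbkg and Tab2 are named after their values were seen.

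Of 25 measured genes listed as ligands and receptors that start the pathway, 11 rose (44.0%), 1 fell and 13 missed the threshold. Their median change was 0.24. The list also holds Il1rn, the gene of an antagonist that blocks the interleukin 1 receptor. Il1rn was 1 of the 11 that rose (0.53, limma adjusted p = 0.0300) and is named after its value was seen. The 4 that the rule names, by smallest adjusted p, were receptor genes. Tlr2 rose by 1.48 (SE 0.12), Cd14 by 1.39 (SE 0.15), the interleukin 1 receptor gene Il1r1 by 1.32 (SE 0.09) and Tlr4 by 1.01 (SE 0.10), with limma adjusted p of 3.22e-04 or lower. The tumour necrosis factor receptor gene Tnfrsf1b rose more than Il1r1 and Tlr4, by 1.38 (SE 0.16, limma adjusted p = 3.77e-04). It is named after its value was seen. Cd14 is also 1 of the macrophage markers given above. Il1r1 had values of 8.20 to 8.60 with Ad-null and 9.62 to 9.73 with Ad-Zip8. Tlr5 was the 1 gene that fell (-0.40) and is named after its value was seen; without Ad-null replicate 3 the count of lower genes was 2.

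Of 39 measured textbook target genes that are not members, 26 rose (66.7%) and none fell, with a median change of 1.05. Tnf, Il1b and Cd40 stand both in this list and in that of ligands and receptors. The list was chosen with earlier results of these data known, so its direction is no independent evidence. Sod2, the gene of mitochondrial superoxide dismutase, rose by 1.96 (SE 0.08) and the complement gene Cfb by 3.71 (SE 0.17). Ccl5 and Mmp3 complete the 4 that the rule names, with changes of 3.76 and 5.99. The 4 had limma adjusted p of 2.10e-06 or lower.

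**Figure D5:**
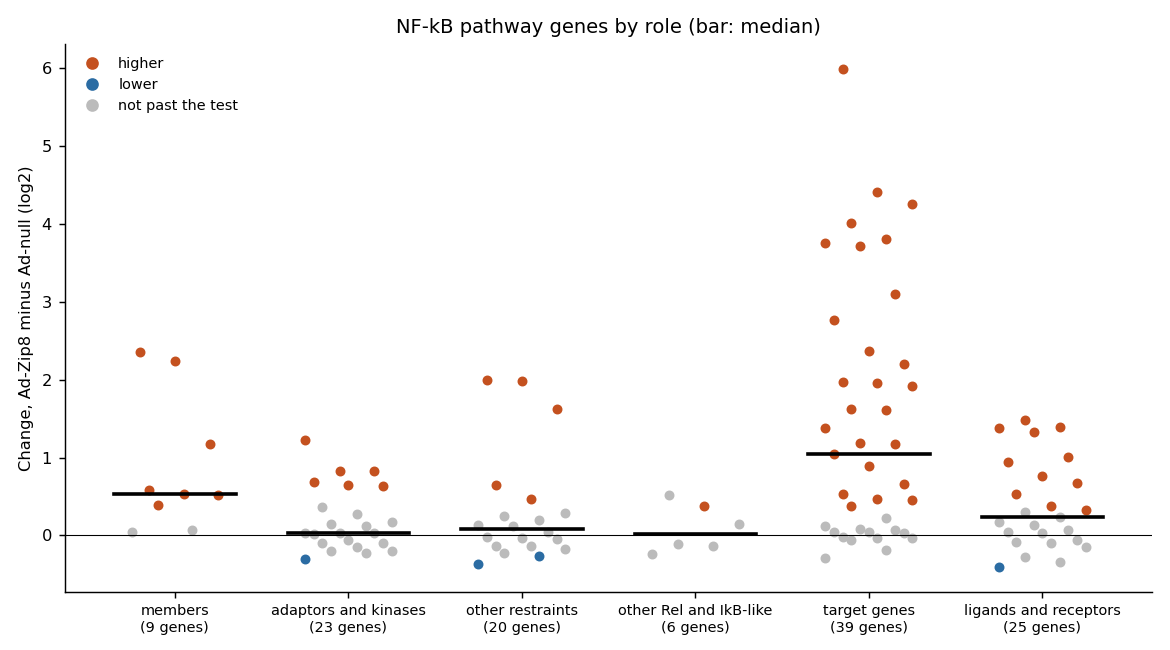
Change of each measured gene (y axis: Ad-Zip8 minus Ad-null, log2) for the 9 members and the 5 other pathway lists; points are genes, coloured by call, and bars are list medians. Target genes have the highest median (1.05), followed by the members (0.53). Lists of adaptors and kinases (0.04), other restraints (0.08) and genes labelled other Rel and IkB-like (0.02) have medians near 0. Single genes lie above it.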

How the data were processed

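Per the labels' protocols, total RNA of 8 chondrocyte samples was turned into sense cDNA and biotinylated with a whole-transcript kit. The authors deposited 1 log2 value per probe set and array, which the submitters' processing notes credit to RMA (background correction, a common distribution for all arrays, 1 summary per probe set). No source used here states its version, its annotation or a filter. Near the ends of the scale (0.85 to 13.8) differences shrink. Precision is limited by the number of arrays.

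Of 41345 probe sets 23521 carried 1 gene symbol, 1814 several, and 16010 were unnamed here. Where a gene had more than 1 probe set (1082 genes), the brightest on average over the 8 arrays stood for it. Ad-Zip8 was compared with Ad-null with limma 3.58.1 (R 4.3.3, lmFit and eBayes, two-sided, no covariates), with Benjamini-Hochberg adjustment over 22180 genes and a threshold of 0.05; the procedure was tested on simulated data. Changes are differences of mean log2 values. The members, lists, pairs and naming rule (all members, Rel, Nfkbid, Slc39a8, up to 4 called genes per list without overlap, and the 3 nearest profiles to Nfkbiz and Nfkb2) were chosen with earlier results of these data known. Deviations from the group means correlated at 0.11 to 0.37 between same-numbered arrays of the groups and at -0.27 to 0.16 between other arrays, so an alternative fit paired arrays by number; that pairing comes from the data, not the labels. Protein sequences and genome coordinates of the probe sets were not used here.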

Additional observations from a re-analysis of the deposited data

Results flagged for a closer look

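In 7 of 68 groups of 4 arrays, over 34 named genes, 1 array stood apart from the other 3; chance gives about 1 group in 20. Among the members, Nfkb2 was 7.60 on Ad-null replicate 1, below 7.66 to 7.68 on the others. Rela was 10.40 on Ad-Zip8 replicate 1, above 10.13 to 10.17. Nfkbie was 6.30 on Ad-Zip8 replicate 3, below 6.70 to 6.75, and without that array its change was 0.62. Among other pathway genes, Traf2 was 7.52 on Ad-null replicate 3 (others 7.73 to 7.76) and Cd14 was 5.12 on the same array (others 5.47 to 5.51). Tnip3 was 6.91 (others 6.12 to 6.25) and Sod2 11.95 (others 11.78 to 11.81) on Ad-Zip8 replicate 1.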

How the results depend on the processing

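All called members but Nfkbie stayed higher and past the threshold under each of the 15 alternatives. These were the replicate block, 2 rescalings, the filter on dim genes, the variance trend, the mean of a gene's probe sets, adjustment over all probe sets, and leaving out each array in turn. The mean of a gene's probe sets could not change the members' values, because each member has 1 probe set. The count of higher members was 6 or 7. The replicate block changed no member's call (Nfkbie adjusted p = 0.0100). Nfkbie kept a change of 0.52 but did not pass over all probe sets (adjusted p = 0.0885), and ranged from 0.43 to 0.62 with 1 array left out. With 1 array left out, Rela's change ranged from -0.016 (without Ad-Zip8 replicate 1) to 0.079 (without Ad-null replicate 2). Of all genes, 708 to 923 were lower with 1 array left out, against 1136. Differences between pairs kept their direction. The 3 pairs that passed also passed with each array left out (exact permutation, adjusted p = 0.0476). Groups that do not overlap still do not overlap with fewer arrays, so this check could hardly fail. The unadjusted exact permutation p stayed at its smallest possible value, 0.0286. With the replicate block their adjusted p was 0.156, where the smallest possible p, 0.125, cannot reach the threshold. Lower counts of the pathway lists moved most, and the count of higher ligands or receptors ran from 8 to 12, against 11. With the replicate block 1 other restraint and 2 ligands or receptors were lower; with repeated quantile normalization 0 adaptors or kinases and 0 restraints; with arrays centred on their medians 1 restraint; with all probe sets 0 and 0. With dim genes left out and with the variance trend 3 restraints were lower. With dim genes left out 1 gene of the list labelled other Rel and IkB-like and 1 target were lower, and 1 target with the variance trend. With 1 array left out, 0 to 1 adaptors or kinases, 0 to 1 restraints and 1 to 2 ligands or receptors were lower. Of the list labelled other Rel and IkB-like, 1 to 2 genes were then higher and 0 to 1 lower. Scaling moved the median of all genes from -0.017 to between -0.011 and -0.0057.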
